A study of Mus musculus with 16 samples.

Results

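The 10 genes described here encode enzymes that need molecular oxygen, and they are called demethylases below. All but JMJD6, whose action on histones is debated, remove methyl groups from histones or start their removal from DNA. The 10 were chosen by name from 25719 mouse genes counted in each library, with earlier results of these data known. The choice was of 2-oxoglutarate dependent demethylases, some of which are known targets of the hypoxia-inducible factors (HIF). The 10 are Kdm3a, Kdm4a, Kdm4b, Kdm4c, Kdm5b, Kdm6b, Jmjd6, Tet1, Tet2 and Tet3. All 10 were found by symbol, and all 10 passed the filter on low counts, with between 193 and 3335 counts per gene and library.

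RNA was sequenced from tail tendon fascicles, the thin collagen strands pulled from the mouse tail, in 8 libraries labelled wild type and 8 labelled knockout. The knockout genotype is ScxCre;Vhlf/f, in which Cre recombinase driven by the tendon gene Scx deletes floxed Vhl sequence where Scx has been active. The ages and the sex of the mice, and whether the wild type animals carried Cre or floxed alleles, are not stated in the labels. Nor is it stated that each library is a separate animal. The p-values therefore set differences against the spread between these libraries, which may not be the spread between animals. The label names all cells of the tissue, and in such bulk samples fewer cells of a type and less RNA per cell cannot be told apart.

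The family works as follows. JmjC histone demethylases and TET enzymes hold an iron ion and use oxygen and 2-oxoglutarate to hydroxylate a methyl group, giving off succinate. On a histone lysine the hydroxylated methyl group falls away, whereas on DNA the TET enzymes oxidise 5-methylcytosine stepwise and base excision or replication completes the removal. The HIF prolyl hydroxylases use the same chemistry, and their product is what the VHL protein recognises when it marks HIF1α for degradation, so that loss of VHL keeps HIF1α stable while oxygen is present. KDM3A, KDM4B, KDM4C, KDM5B and JMJD6 are among the family members described elsewhere as transcribed in response to HIF or hypoxia.

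HIF binds the letters ACGTG or GCGTG in DNA. The 250 bases before the annotated starts of the members were searched for these letters on both strands, where a match on the other strand reads CACGT or CACGC, with sequences from RefSeq (build GRCm38.p6). The table matched 8 of the 10 members with 11 starts, and 5 of these 11 promoters, belonging to Jmjd6, Kdm3a, Tet2, Kdm4c and Kdm5b, held at least 1 match. Among all 32851 promoters of the table the share was 38.6%, so the letters are common. Kdm3a also had annotated starts without a match. Its match lies within the span of exons annotated for Kdm3a itself (chr6:71632838-71632990). The matches of Jmjd6 lie within the span of exons annotated for Mettl23 (chr11:116843278-116843774). The stretches of 30 bases around the matches of the 3 members that rose without overlap between the genotypes and have a promoter in the table, and of Kdm5b, are shown with the matched letters in capitals.
Jmjd6, chr11:116843661-116843690, minus strand, 228 bases before the start: gaggccgggctcgCACGTaggggagtccag
Jmjd6, chr11:116843450-116843479, minus strand, 11 bases before the start: ccaacatggcgcccaattgGCGTGcatgaa
Kdm3a, chr6:71632928-71632957, minus strand, 27 bases before the start: tccgggaggctgtGCGTGtcttgtgagaga
Tet2, chr3:133544391-133544420, minus strand, 16 bases before the start: gctcgcatgccagtCACGTccgccccctcg
Kdm5b, chr1:134559936-134559965, plus strand, 229 bases before the start: gccaaaatatatgACGTGattgatggattg
Kdm5b, chr1:134560146-134560175, plus strand, 19 bases before the start: gcggaggagcactGCGTGgggtagcggcaa

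Kdm4c had the most matches of the members. Of its 2 annotated starts 1 had none, and the other had 4, which was also the only member promoter to hold CACGTG, the palindrome that reads ACGTG on both strands and is the core letters of an E-box bound by other factors too. CACGTG was in 6.02% of all promoters of the table. The 250 bases before this start lie at chr4:74251629-74251878 on the plus strand of GRCm38.p6 and are shown whole because the 4 matches stand close together, with the matched letters in capitals.
Kdm4c: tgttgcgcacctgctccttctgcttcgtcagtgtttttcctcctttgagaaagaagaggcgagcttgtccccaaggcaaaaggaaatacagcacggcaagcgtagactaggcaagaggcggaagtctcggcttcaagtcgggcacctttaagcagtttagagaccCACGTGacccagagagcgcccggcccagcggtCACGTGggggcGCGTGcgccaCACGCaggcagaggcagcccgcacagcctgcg
A match describes letters and not binding. Kdm4a, Tet1 and Tet3 had no match in this window.

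The libraries held between 10488355 and 18753254 counts. Vhl fell from 20.5 ± 3.69 to 9.35 ± 1.25 CPM (counts relative to a common library size, scaled by the trimmed mean of M-values, TMM; SD, n = 8), without overlap. The 8 tendon markers on the list summed to between 130000 and 379000 CPM in the wild type and between 77400 and 181000 CPM in the knockout. The collagen genes Col1a1 (mean 153000 and 79600 CPM in the wild type and the knockout) and Col1a2 (108000 and 39800 CPM) were the highest of the 8. Scx lay between 54.5 and 1030 CPM in the wild type and between 56.2 and 1250 CPM in the knockout. Of the 8 tendon markers, 5 fell and 1 rose, with a median log2 fold change of -0.85 (5 and 2, and -0.54, on total counts). Markers of other cells also differed. The summed level of 10 endothelial markers lay between 39.6 and 56.3 CPM in the wild type and between 57.0 and 494 CPM in the knockout, that of 7 erythroid markers between 15.1 and 50.8 and between 77.8 and 563 CPM, and that of 8 proliferation markers between 48.7 and 69.9 and between 108 and 190 CPM. Of the tested genes 6 of 8 endothelial, 5 of 5 erythroid and 8 of 8 proliferation markers rose, and no listed marker of these 3 lists was at 0 in every library. Of 8 tested mural markers 5 rose and 1 fell (6 and 0 on total counts), with their sum between 354 and 510 CPM in the wild type and between 365 and 2140 CPM in the knockout. The pan-leukocyte gene Ptprc was at 33.2 and 60.8 CPM in the wild type and the knockout, without overlap, whereas 8 macrophage markers summed to between 751 and 1140 and between 744 and 1170 CPM. The 12 skeletal muscle markers overlapped between the genotypes but reached 9880 CPM in wild type library 5 and 15500, 22400 and 20200 CPM in knockout libraries 6, 7 and 8, against 3560 CPM or less in the other 12. Their part in the changes of the demethylases was not tested beyond the fits named beside each result.

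Of the 10 demethylases, 7 rose in the knockout, none fell and 3 did not pass the threshold of an adjusted p of 0.05 (edgeR quasi-likelihood, Benjamini-Hochberg over 14803 tested genes). Over all tested genes 48.3% passed, 25.6% as higher and 22.7% as lower. In 4 of the 10 (Jmjd6, Kdm4b, Tet2 and Kdm3a) every knockout library lay above every wild type library, where 10.8% of all tested genes did so and 8.61% lay wholly below. The median log2 fold change of the 10 was 0.41, beside 0.02 over all tested genes. Because the 10 were chosen with earlier results of these data known, these shares and medians are description only. Among the known HIF targets of the reference list in the same fit, Pdk1 was at 1.52, near Jmjd6 at 1.71. Egln1 (2.44), Bnip3 (3.15), Slc2a1 (4.39), Egln3 (6.08) and Car9 (6.40) were above all 10. Pdk1, Egln1 and Bnip3 were chosen after their values were seen. Hif3a, from the same list, rose by 3.43 without overlap.

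**Figure D1:**
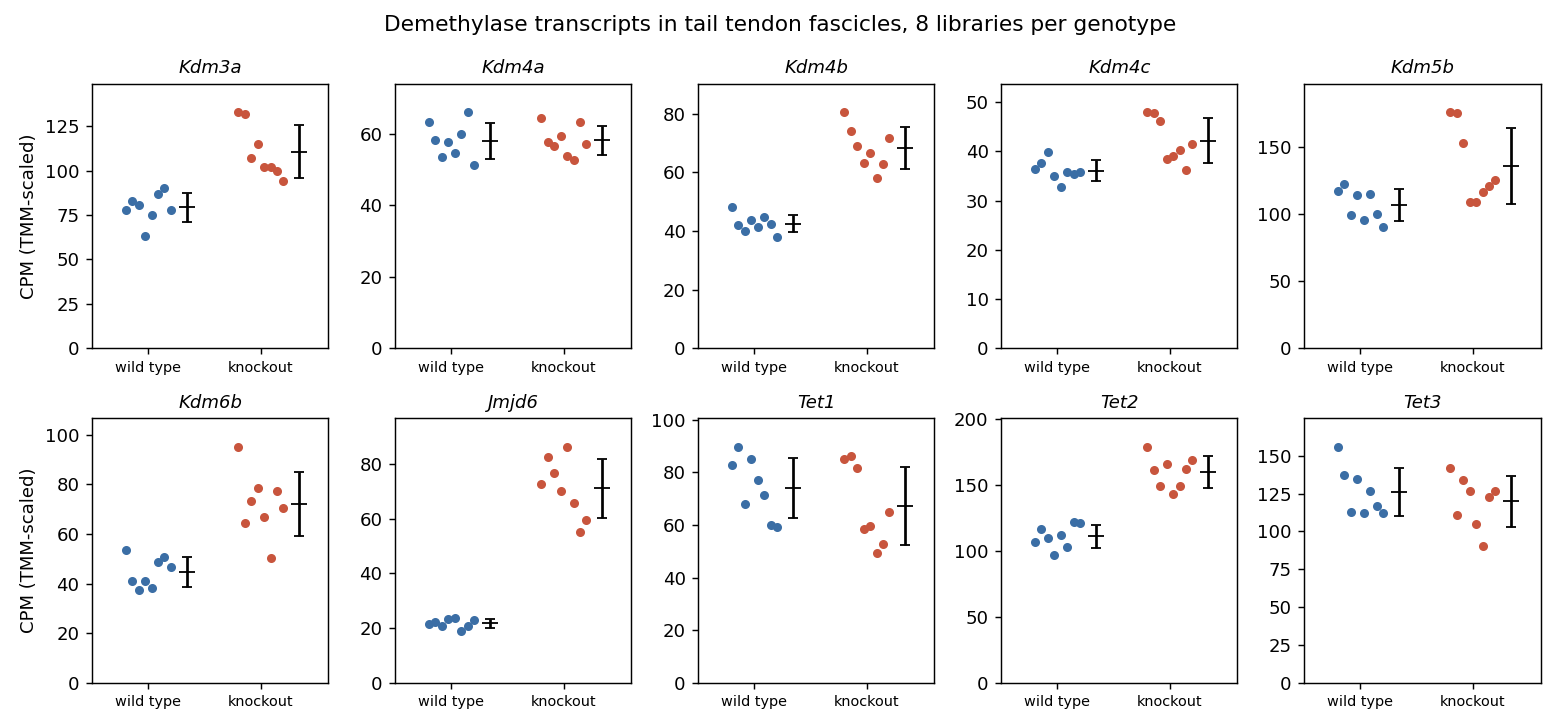
Level of each of the 10 demethylase transcripts in CPM (TMM-scaled), with 1 point per library in the order of the replicate numbers, 8 wild type (blue) and 8 knockout (red), and the mean ± SD beside the points. Each panel has its own axis from 0. The clouds of Jmjd6, Kdm4b, Tet2 and Kdm3a are apart, those of Kdm4c, Kdm5b and Kdm6b overlap in part, and those of Kdm4a, Tet1 and Tet3 overlap throughout most of their range.

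Jmjd6 showed the largest change of the 10. JMJD6 hydroxylates lysines of splicing factors, and a role in removing methyl groups from histone arginines has been reported and debated. Its transcript (ENSMUSG00000056962, chromosome 11) lay at 18.9, 21.9 and 23.7 CPM in the lowest, median and highest wild type library and at 55.2, 71.5 and 86.3 CPM in the knockout. The wild type libraries were tightly grouped, and the lowest knockout library stood well above all of them. The log2 fold change was 1.71 (SE 0.0871), a 3.27-fold rise with a 95% interval of 2.88 to 3.71 (edgeR quasi-likelihood, Benjamini-Hochberg adjusted p = 6.02e-12), and 4.86% of all tested genes had a higher value. Exons of Jmjd6 overlap those of Mettl23 on the other strand, and the use of strand in counting is not given in the sources used here, so the counts of both are uncertain. Mettl23, chosen after its values were seen for this reason, was at 46.6 ± 4.74 and 55.4 ± 3.72 CPM (SD, n = 8; log2 fold change 0.25).

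Per kilobase of exon, Jmjd6 moved from the lowest of the 10 in the wild type, at 4.63 ± 0.338 CPM per kilobase, to the highest in the knockout, at 15.1 ± 2.29 (SD, n = 8). These places depend on the annotated exon length of each gene, which merges the exons of all its transcripts. In the wild type its level did not differ from that of its neighbour in the order, Tet1, beyond their spread, and in the knockout it did not differ beyond the spread from Kdm4b. The 3 genes whose centred log2 CPM over the 16 libraries lay closest to that of Jmjd6, out of 14802 compared, were the glycolytic enzyme gene Eno1, with a root mean square difference of 0.127, then Ppme1 (0.145), which encodes a methylesterase of protein phosphatase 2A, and Rnf126 (0.154), which encodes a ubiquitin ligase. Their log2 fold changes were 1.56, 1.50 and 1.78. The distance spans both genotypes, so genes with a similar difference between the genotypes lie close. Shared regulation was not tested.

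The demethylases of lysine 9 of histone H3, a mark of silent chromatin, split by gene. Kdm3a, Kdm4b and Kdm4c rose and Kdm4a did not pass the threshold. KDM3A removes the mono- and dimethyl marks. KDM4A, KDM4B and KDM4C remove the di- and trimethyl marks and also act on lysine 36.

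Kdm4b (ENSMUSG00000024201, chromosome 17) lay at 38, 42.2 and 48.1 CPM in the lowest, median and highest wild type library and at 58.1, 67.8 and 80.6 CPM in the knockout. The genotypes did not overlap. It rose by 0.68 on the log2 scale (SE 0.0669, edgeR quasi-likelihood, Benjamini-Hochberg adjusted p = 6.81e-08), or 1.61-fold with an interval of 1.46 to 1.77. Kdm3a (ENSMUSG00000053470, chromosome 6) lay at 63.2, 79.3 and 90.4 CPM in the wild type and at 94.1, 105 and 133 CPM in the knockout. The gap between the highest wild type and the lowest knockout library was small, and knockout libraries 1 and 2, at 133 and 132 CPM, stood above the other 6. It rose by 0.48 (SE 0.0835, adjusted p = 8.77e-05), or 1.39-fold with an interval of 1.23 to 1.57.

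Kdm4c (ENSMUSG00000028397, chromosome 4) lay at 32.7, 35.7 and 39.9 CPM in the wild type and at 36.3, 40.9 and 48.0 CPM in the knockout. The genotypes overlapped, and 5 of 8 knockout libraries were above the highest wild type library. Knockout libraries 1, 2 and 3 were at 48.0, 47.7 and 46.1 CPM, and the others lay between 36.3 and 41.5 CPM. The difference of 0.22 (SE 0.0666) passed the threshold (edgeR quasi-likelihood, Benjamini-Hochberg adjusted p = 0.00905) and no longer did without the 4 libraries that held Y-linked RNA (0.20, adjusted p = 0.0603). Kdm4a (ENSMUSG00000033326, chromosome 4) lay at 51.2, 58.2 and 66.2 CPM in the wild type and at 52.8, 57.6 and 64.6 CPM in the knockout. Its values lay over the same range in both genotypes, and the fold of 1.00 had a 95% interval of 0.916 to 1.09. That interval holds neither the rise of Kdm4b nor that of Kdm3a.

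**Figure D2:**
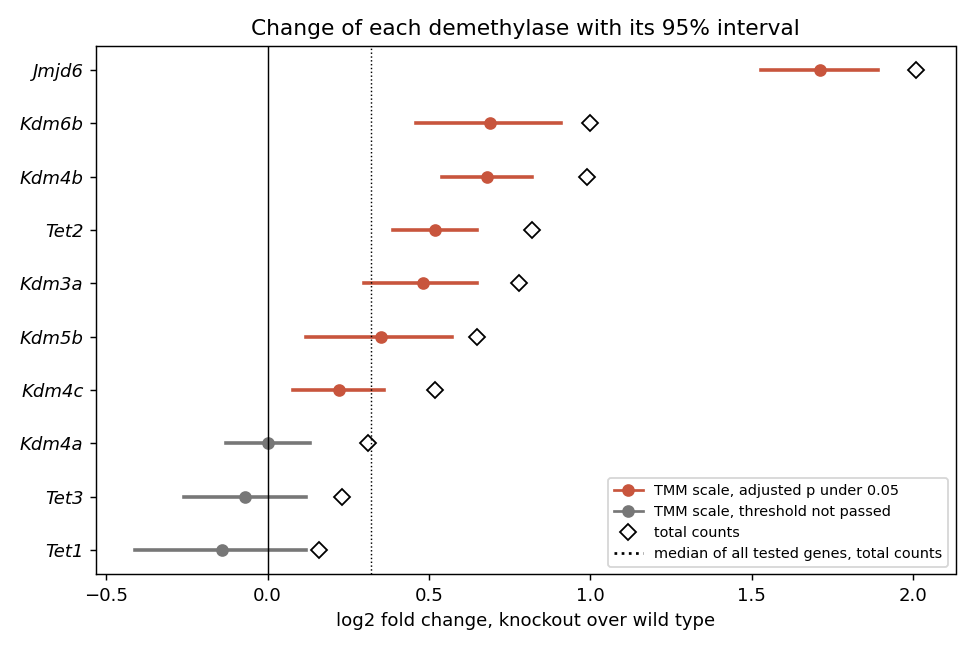
Log2 fold change of each demethylase, knockout over wild type (x axis), with its 95% interval on the TMM scale (filled circles, red where the adjusted p was under 0.05) and the estimate with libraries scaled to total counts (open diamonds). The dotted line marks the median of all tested genes on total counts, 0.32. On the TMM scale 7 genes lie to the right of 0 with their intervals, and with total counts all 10 estimates lie further to the right, with Kdm4a at the dotted line and Tet1 and Tet3 to its left.

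Scaling moved all of these values together. With total counts in place of TMM factors the median of all tested genes rose from 0.02 to 0.32, and 65.4% of genes passed, 55.9% as higher and 9.56% as lower. On that scale 9 of the 10 demethylases passed as higher. Kdm4a stood at 0.31, at the shift of all genes. Tet3 changed sign from -0.07 to 0.23 and Tet1 from -0.14 to 0.16, both below the shift, and Tet1 did not pass.

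Kdm5b encodes a demethylase of the trimethyl mark on lysine 4 of histone H3, which sits at active promoters. Its transcript (ENSMUSG00000042207, chromosome 1) lay at 90.6, 107 and 122 CPM in the lowest, median and highest wild type library and at 109, 123 and 176 CPM in the knockout. Knockout libraries 1, 2 and 3 were at 176, 175 and 153 CPM, and the other 5, between 109 and 125 CPM, lay mostly within the wild type range. The difference of 0.35 (SE 0.108) passed the threshold (edgeR quasi-likelihood, Benjamini-Hochberg adjusted p = 0.0126), and without the 4 libraries with Y-linked RNA it did not (0.26, adjusted p = 0.0856).

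Kdm6b encodes a demethylase of the trimethyl mark on lysine 27 of histone H3, the mark of Polycomb silencing. Its transcript (ENSMUSG00000018476, chromosome 11) lay at 37.5, 44.1 and 53.7 CPM in the wild type and at 50.4, 72.0 and 95.2 CPM in the knockout. In 7 of 8 knockout libraries it was above the highest wild type library, and knockout library 6 lay within the wild type range. It rose by 0.69 (SE 0.106, edgeR quasi-likelihood, Benjamini-Hochberg adjusted p = 2.37e-05), or 1.61-fold with an interval of 1.38 to 1.88. An antisense transcript, Kdm6bos, overlaps its exons in the annotation, so its counts are uncertain in the same way.

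The TET genes went apart from one another. Tet2 (ENSMUSG00000040943, chromosome 3) lay at 97.3, 111 and 122 CPM in the lowest, median and highest wild type library and at 143, 162 and 179 CPM in the knockout. The genotypes did not overlap, and the knockout libraries were about as closely grouped as the wild type ones, with coefficients of variation of 7.54% and 7.82%. It rose by 0.52 (SE 0.0623, edgeR quasi-likelihood, Benjamini-Hochberg adjusted p = 9.04e-07), or 1.44-fold with an interval of 1.31 to 1.57. A short exon overlap with the antisense gene Gm42567 is annotated.

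Tet3 (ENSMUSG00000034832, chromosome 6) lay at 112, 122 and 156 CPM in the wild type and at 90.4, 125 and 142 CPM in the knockout. The medians were close, and 3 knockout libraries lay below the lowest wild type library. The fold of 0.950 had an interval of 0.833 to 1.08 (adjusted p = 0.529). Tet1 (ENSMUSG00000047146, chromosome 10) lay at 59.2, 74.2 and 89.7 CPM in the wild type and at 49.4, 62.3 and 86.0 CPM in the knockout. Knockout libraries 1, 2 and 3 were between 81.7 and 86.0 CPM and the other 5 between 49.4 and 64.9 CPM, so its coefficient of variation in the knockout, 22.1%, was the highest of the 10 genes in either genotype. The fold of 0.905 had an interval of 0.754 to 1.09 (edgeR quasi-likelihood, Benjamini-Hochberg adjusted p = 0.363). Without the 4 libraries richest in muscle RNA the log2 difference was 0.01.

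**Figure D3:**
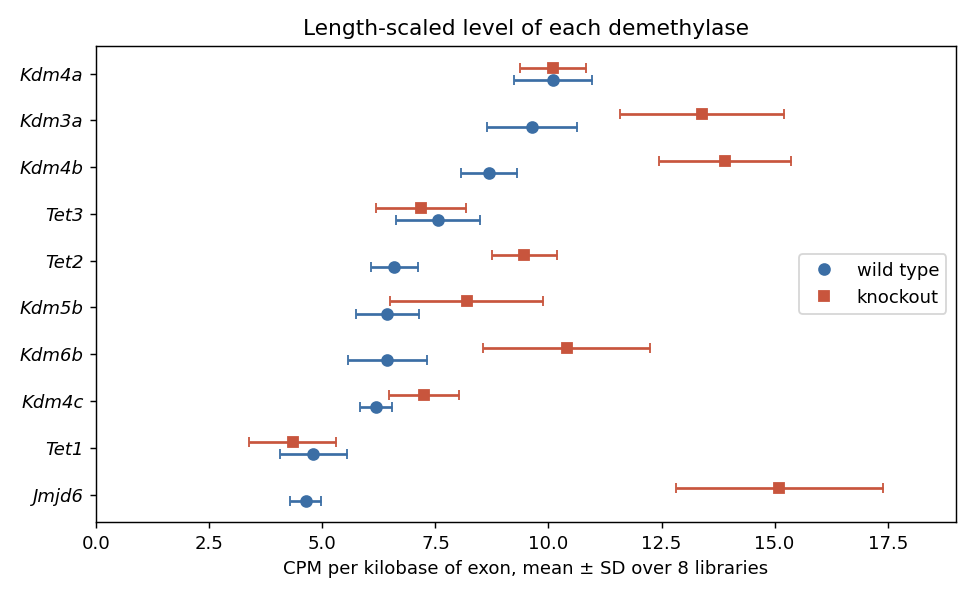
Mean level of each demethylase in CPM per kilobase of annotated exon (x axis), with SD over 8 libraries, in the wild type (blue circles) and the knockout (red squares), ordered by the wild type level. Kdm4a is highest in the wild type at 10.1, and Jmjd6 passes from the lowest place at 4.63 to the highest at 15.1.

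In the wild type the length-scaled levels spanned little more than a doubling, from 4.63 for Jmjd6 to 10.1 ± 0.867 CPM per kilobase for Kdm4a. The length merges all annotated exons of a gene, whether or not they are used in this tissue. The order between genes therefore depends on the annotation, and the SD covers only the spread between libraries. Kdm4a, Kdm3a (9.64 ± 1.00) and Kdm4b (8.69 ± 0.623) led, and neighbours among these 3 did not differ beyond their SD. Tet3 (7.56 ± 0.937), Tet2 (6.59 ± 0.516), Kdm5b and Kdm6b (both 6.44) and Kdm4c (6.19 ± 0.357) followed. Of these neighbours, Kdm4b and Tet3, and Tet3 and Tet2, differed by more than the larger SD. Tet1 (4.80 ± 0.738) and Jmjd6 were lowest, and Tet1 was below its neighbour Kdm4c in all 8 libraries. In the knockout Jmjd6, Kdm4b (13.9 ± 1.46) and Kdm3a (13.4 ± 1.81) led, with Kdm6b (10.4 ± 1.85) next and below Kdm3a in all 8 libraries, and Tet1 was lowest at 4.35 ± 0.960, below the next gene, Tet3, in all 8 libraries.

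Ratios between paralogues were then compared, since a ratio of 2 genes within a library does not depend on how libraries are scaled. Of 7 ratios, 6 differed between the genotypes (exact permutation tests over 12870 assignments, two-sided, n = 8, Benjamini-Hochberg adjusted over 7, smallest possible p 0.000155). The ratios use the same counts as the calls of single genes above, so they are not separate from those calls. No share was computed for ratios of other gene pairs, and this count is description only. Kdm3b, the closest relative of Kdm3a, was at 86.0 and 82.3 CPM in the wild type and the knockout and did not pass the threshold (log2 fold change -0.06, adjusted p = 0.404). Over 3468 bases its exons overlap those of Gm26538 on the other strand, so its counts, and this ratio, are uncertain. The log2 ratio of Kdm3a to Kdm3b lay between -0.29 and -0.03 in the wild type and between 0.12 and 0.70 in the knockout, so Kdm3b had more counts (not scaled for length) in every wild type library and Kdm3a in every knockout library. The difference was 0.54 (SE 0.0668; adjusted exact p = 0.000363).

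Kdm4b was below Kdm4a in every wild type library, with log2 ratios between -0.65 and -0.40, and between -0.01 and 0.36 in the knockout. This difference of 0.68 (SE 0.0560) had an adjusted exact p of 0.000363, with all 8 knockout libraries above all 8 wild type libraries. Kdm4c to Kdm4a shifted by 0.22 (SE 0.0825), with overlap (adjusted exact p = 0.0303). Each of 7 libraries, when left out alone, took that adjusted exact p above the threshold: wild type 4, 5 and 7 and knockout 1, 2, 3 and 6, with values between 0.0511 and 0.0533.

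Both other TET genes fell relative to Tet2. Tet3 to Tet2 fell from a mean log2 ratio of 0.18 ± 0.248 to -0.42 ± 0.162 (SD, n = 8), a difference of -0.60 (SE 0.105) without overlap (adjusted exact p = 0.000363). Tet1 to Tet2 fell from -0.60 ± 0.303 to -1.28 ± 0.298, a difference of -0.68 (SE 0.150), with 6 of 8 knockout libraries below every wild type library (adjusted exact p = 0.00218).

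Kdm5b to Kdm5a did not shift, with means of 0.03 ± 0.189 and -0.01 ± 0.256 and a difference of -0.04 (SE 0.113; adjusted exact p = 0.705, n = 8). Kdm5a, a second demethylase of lysine 4, had itself risen by 0.37 without overlap, from 104 to 134 CPM. Its exons overlap those of Ccdc77 on the other strand over 251 bases. Kdm6b to Kdm6a shifted by 0.65 (SE 0.261; adjusted exact p = 0.0303, n = 8), with wide spread in both genotypes. Kdm6a, an X-linked demethylase of lysine 27, varied in both genotypes too: in the 2 wild type and 2 knockout libraries that held Y-linked RNA it was between 38.2 and 44.1 CPM, and in the other 12 between 71.9 and 84.9 CPM. Leaving out any 1 of wild type 2, 3, 4 and 5 or knockout 1 and 6 took the adjusted exact p of this ratio above the threshold, to between 0.0515 and 0.0625. Without all 4 libraries with Y-linked RNA the shift was 0.73, past the threshold (adjusted exact permutation p = 0.00303).

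**Figure D4:**
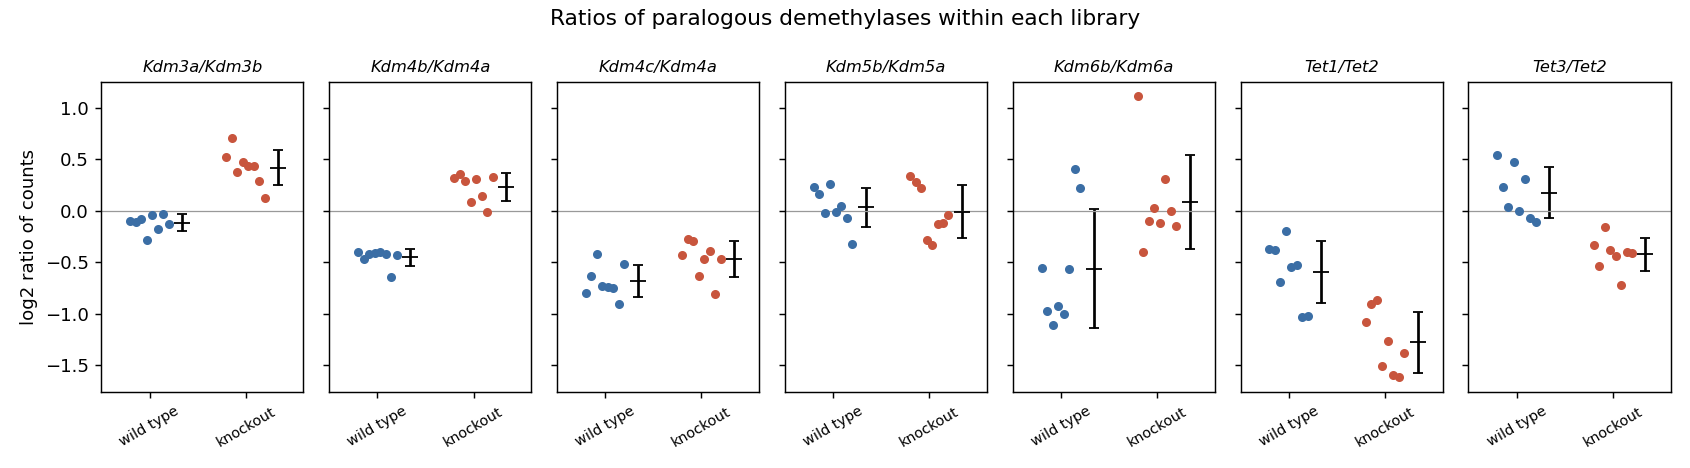
Log2 ratio of counts of each demethylase to a paralogue within each library (y axis, shared), for 8 wild type (blue) and 8 knockout (red) libraries, with mean ± SD; above 0 the gene named before the slash has more counts. The ratios of Kdm3a to Kdm3b and Kdm4b to Kdm4a move up across genotypes without overlap, that of Tet3 to Tet2 moves down without overlap, and that of Kdm5b to Kdm5a stays in place.

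The rest of the JmjC family moved in both directions. Of 22 listed genes 19 were tested, and 11 (57.9%, beside 48.3% of all tested genes) passed, 8 higher and 3 lower. Kdm2a, a demethylase of lysine 36 that binds unmethylated CpG islands, rose from 106 to 168 CPM (log2 fold change 0.66, edgeR quasi-likelihood, Benjamini-Hochberg adjusted p = 7.99e-08). Hr, a corepressor with a JmjC domain known for its role in hair growth, fell by 1.10, from 93.5 to 43.5 CPM (adjusted p = 2.60e-05). Both were without overlap between the genotypes. Riox1, a nucleolar oxygenase, rose by 0.38 at a low level of 4.28 to 5.54 CPM. The median of this list was 0.20. The 2 others that were lower, Kdm7a (-0.22) and Kdm8 (-0.35), chosen after their values were seen, overlapped, and with total counts they stood at 0.09 and -0.05 and did not pass.

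Demethylases outside the JmjC and TET families were compared from lists. Among 9 AlkB-type genes, which act on RNA and DNA bases or on proteins, 3 passed (33.3%, beside 48.3% of all tested genes), 1 higher and 2 lower. The lower ones, Alkbh7 (-0.67) and Fto (-0.22), were chosen after their values were seen and overlapped. With total counts Alkbh7 was at -0.37 and still passed, and Fto was at 0.09 and did not. Alkbh5, an eraser of N6-methyladenosine in RNA described elsewhere as induced in hypoxia, rose by 0.72, from 166 to 273 CPM, without overlap (edgeR quasi-likelihood, Benjamini-Hochberg adjusted p = 9.10e-08). Among 8 flavin-dependent demethylases and partners, 62.5% passed, 3 higher and 2 lower. Kdm1a itself, chosen after its values were seen, differed by 0.24 with overlap, and Hdac2, the other lower gene, by -0.24, which became 0.05 with total counts. Rcor2, a corepressor that binds the demethylase KDM1A, rose by 2.16, from 11.7 to 52.3 CPM, and Kdm1b fell by 0.33, both without overlap. With total counts Kdm1b was at -0.03 and did not pass.

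The methyltransferases that write the same marks were counted beside them. Of 6 writers of the lysine 9 mark 1 passed, Suv39h1, which rose by 0.32 with overlap and was chosen after its values were seen. Of 10 genes of the lysine 4 complexes 2 passed, of which the scaffold gene Wdr5 rose by 0.30 and Kmt2c, chosen after its values were seen, was at -0.28 and, with total counts, at 0.03. Of 6 writers of lysine 36 methylation 1 passed, Smyd2, which rose by 0.56. Of 7 genes of Polycomb repressive complex PRC2, which writes the lysine 27 mark, 3 were higher and 1 lower. Jarid2 rose by 0.46 and Suz12 by 0.38, both without overlap, and the enzyme gene Ezh2, chosen after its values were seen, was at -0.40 with overlap (edgeR quasi-likelihood, Benjamini-Hochberg adjusted p = 0.000437) and at -0.09 with total counts, where it did not pass. Whether the demethylases differ from the methyltransferases as groups was not tested.

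Around the TET enzymes, 11 of 18 genes of DNA methylation and base excision passed (61.1%, beside 48.3% of all tested genes). Of these, 9 were higher and 2 lower, and the median of the list was 0.18. Uhrf1, which guides the maintenance methyltransferase to replicating DNA, rose by 2.58, from 1.51 to 9.01 CPM. The proliferation markers, of which 8 of 8 rose, moved in the same direction, and their part in this result was not tested. Gadd45b rose by 2.00 and Gadd45a by 1.18, both stress-response genes linked to DNA demethylation. Cxxc4, whose protein binds TET2 and lowers its level, fell by 1.80, from 7.60 to 2.16 CPM. All 4 were without overlap, with adjusted p-values between 6.64e-08 and 1.80e-06 (edgeR quasi-likelihood, Benjamini-Hochberg). The other gene that fell, Dnmt3a, a de novo methyltransferase chosen after its values were seen, went down by 0.58, from 146 to 98.1 CPM, also without overlap, and stood at -0.27 with total counts, where it still passed.

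The supply of 2-oxoglutarate was covered by 24 genes, of which 11 passed, 6 higher and 5 lower, near the share of all tested genes (45.8% beside 48.3%). Gpt2 rose by 1.62 and Psat1 by 1.41, enzymes whose transaminations release 2-oxoglutarate from glutamate. Idh1, which makes 2-oxoglutarate from isocitrate in the cytosol, fell by 0.88, from 115 to 62.5 CPM, without overlap (edgeR quasi-likelihood, Benjamini-Hochberg adjusted p = 4.40e-07). Dlst, part of the mitochondrial complex that consumes 2-oxoglutarate, rose by 0.22. Of the 5 lower genes Idh1 alone passed with total counts. The other 4, Idh2, Glud1, Sdha and D2hgdh, chosen after their values were seen, lay between -0.07 and 0.06 on that scale.

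**Figure D5:**
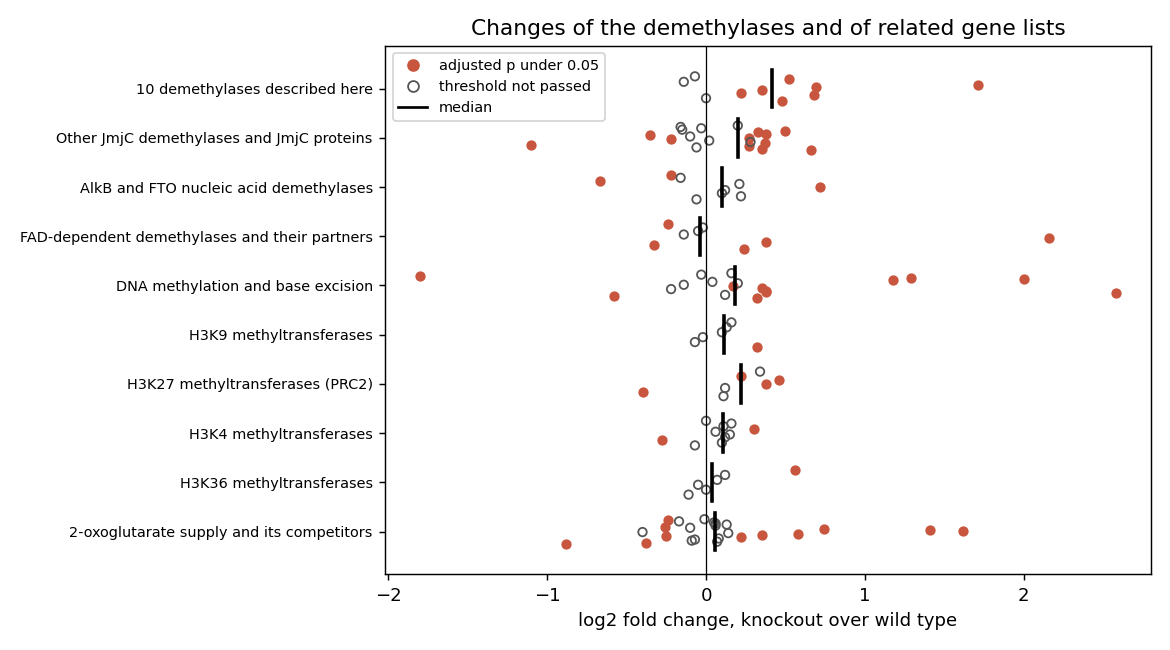
Log2 fold change, knockout over wild type (x axis), of each tested gene of the 10 demethylases and of 9 related lists (rows), filled where the adjusted p was under 0.05 and open where not, with a bar at the median of each row. The reference list of VHL and HIF pathway genes, with a median of 1.52, is not drawn. Among the rows drawn, the demethylases, chosen with earlier results of these data known, have the rightmost median, 0.41. They and the H3K9 and H3K36 methyltransferases have no filled point on the left of 0, and the other 7 lists have filled points on both sides.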

How the data were processed

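The authors deposited raw counts, whole and unnormalized, of 25719 genes in 1 table per library. The submitters' processing notes name kallisto, featureCounts and GRCm39, without role or order; annotation and strand setting are not given in the sources used here. Symbols came from a supplied name table (25614 identifiers matched). Exon lengths and overlaps came from GENCODE M21 (GRCm38) and promoters from RefSeq, so no gene positions are given for the counts.

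Testing used edgeR 4.0.16 (R 4.3.3) with quasi-likelihood F statistics (TMM, filterByExpr, robust dispersions, genotype as the only term, two-sided), with adjustment over 14803 genes and a threshold of 0.05. CPM use TMM-scaled library sizes, and log2 CPM a prior count of 2. Paralogue ratios used counts plus 0.5. Promoter matches were counted after merging overlapping ones. Alternatives were DESeq2 size factors, total counts, limma-voom (limma 3.58.1) with quality weights, DESeq2 1.42.0 with its Wald statistic, no filter on low counts, a filter at a mean of 10, the replicate number as a block, muscle and Y-linked scores as covariates, each library left out, and 5 added to each count of a ratio. Leaving out the 4 libraries richest in muscle RNA, the 4 with high Scx (479 to 1250 CPM against 140 or less) or the 4 with Y-linked RNA was chosen after seeing the data. Within each genotype no library was a copy of another: the most similar pair had a chi-square of 6.56 per degree of freedom over 14096 genes. Pairs across the genotypes were not compared, and this check cannot tell whether libraries came from the same animal.

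The members and lists were chosen with earlier results of these data known. All members are named. From each other list up to 4 genes past the threshold without overlap are named by size of change, and others are said to have been chosen after their values were seen.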

Additional observations from a re-analysis of the deposited data

Results flagged for a closer look

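In 34 checks of 8 libraries each (the log2 CPM of 10 genes and 7 paralogue ratios in each genotype), 2 libraries stood apart from the other 7, where chance gives about 1 in 20 checks, or 1.7. The log2 ratio of Kdm4b to Kdm4a was -0.65 in wild type library 7, and -0.47 in the next lowest; its distance took up a share of 0.693 of the whole range. The log2 ratio of Kdm6b to Kdm6a was 1.11 in knockout library 1, and 0.31 in the next highest, a share of 0.531 of the range. Knockout library 1 held Y-linked RNA and had the highest Kdm6b of all libraries.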

How the results depend on the processing

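The direction of the 7 demethylases that rose was kept under every alternative run, and their calls under all but 1: without the 4 libraries with Y-linked RNA, 2 of the 7 did not pass, Kdm4c (0.20) and Kdm5b (0.26). Log2 fold changes ranged from 1.66 to 2.01 for Jmjd6, 0.62 to 1.00 for Kdm6b, 0.65 to 0.99 for Kdm4b, 0.50 to 0.82 for Tet2 and 0.44 to 0.78 for Kdm3a, with the top of each range on total counts. Total counts moved calls most. They took Kdm4a past the threshold (0.31) and turned Tet1 (0.16), Tet3 (0.23) and Kdm3b (0.24), and the numbers of genes past the threshold became 6 for the AlkB-type list, 5 for the lysine 9, 7 for the lysine 4 and 6 for the lysine 36 methyltransferases and 17 for 2-oxoglutarate supply. Genes past the threshold numbered 9685 with total counts and 6790 to 7151 with 1 library left out. The AlkB-type list had 5 without the libraries with Y-linked RNA, the lysine 9 list 2 with the muscle score and the lysine 36 list 2 with the DESeq2 Wald test. The cause was not tested. Values near 0 changed sign with little movement: Kdm4a was at -0.01 with DESeq2 size factors, the Wald test, limma-voom and the muscle score, at 0.00 with no filter, with a mean count of at least 10 and without the muscle-rich libraries, and between -0.02 and 0.03 with 1 library left out. Tet1 was at 0.01 without the muscle-rich libraries. Kdm6a lay between -0.07 and 0.10 with 1 library left out and at 0.00 without those with high Scx.

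The ratio of Kdm5b to Kdm5a was 0.00 without the muscle-rich libraries and 0.00 without those with high Scx, and -0.09 to 0.00 with 1 left out. The ratio of Kdm4c to Kdm4a lost the threshold without the libraries with high Scx (0.22) or with Y-linked RNA (0.19), and lay between 0.19 and 0.26 with 1 left out. That of Kdm6b to Kdm6a lost it without the muscle-rich libraries (0.60) and lay between 0.50 and 0.78 with 1 left out.

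The labels give both genotypes replicate numbers 1 to 8. Same-numbered libraries did not deviate together: the correlation of their deviations over tested genes lay between -0.397 and 0.394, and 1 of 8 wild type libraries correlated best with its own number. With the replicate number as a block 7010 genes and the same number of demethylases, 7, passed.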

Other observations

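Knockout library 1 had the highest knockout value for 8 of the 10 demethylases, where it had the highest value for 17.4% of all tested genes. Knockout library 6 had the lowest knockout value for 5 of the 10 and wild type library 8 the lowest wild type value for 5 of the 10 (14.8% and 13.5% of all tested genes).

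Kdm5c, an X-linked demethylase of lysine 4 chosen after its values were seen, split in the same way as Kdm6a. It was at 60.8 and 70.3 CPM in the 2 wild type libraries with Y-linked RNA and between 108 and 136 CPM in the other 6. In the knockout the 2 libraries with Y-linked RNA were at 79.7 and 112 CPM and the other 6 between 133 and 146 CPM. Over all libraries its difference between the genotypes was 0.28 and did not pass the threshold (edgeR quasi-likelihood, Benjamini-Hochberg adjusted p = 0.147), and with total counts it was 0.58 and passed.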
